A study of Mus musculus with 8 samples.

Results

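Glucocorticoid and fasting response genes were followed through 8 mouse lungs, array by array. The set holds 9 genes, Fkbp5, Tsc22d3, Zbtb16, Sgk1, Mt1, Mt2, Pdk4, Cdkn1a and Errfi1, and its probes were those that carry one of these symbols in the annotated value table. This gave 12 of the 41174 probes on the array, for 8 of 20920 genes with a symbol. No probe carried the symbol Zbtb16, and that gene was not analysed here. The lungs came from untreated male C57BL/6 mice, labelled as 8 to 10 weeks old, 4 of them wild-type and 4 Scgb3a2-transgenic. The transgene places the mouse Scgb3a2 cDNA, encoding a small secreted protein of the airways, under the human surfactant protein C promoter, which acts mainly in alveolar type II cells, and the mice descend from 1 founder line, so that the site of insertion and the transgene cannot be told apart. RNA of each whole lung was labelled with Cy5 and hybridized with a pool of lung RNA in Cy3, without a dye swap. All values below are therefore log2 ratios of a lung over the pool, and a difference is the transgenic mean minus the wild-type mean of these log2 ratios.

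Glucocorticoids rise in the blood with the time of day, with stress and with fasting, and act through the glucocorticoid receptor, a transcription factor that binds DNA directly. Fkbp5 and Tsc22d3 are among its best known targets in many tissues: Fkbp5 encodes a co-chaperone that lowers the affinity of the receptor for its hormone, and Tsc22d3 encodes GILZ, a leucine zipper protein that mediates part of the anti-inflammatory action. Sgk1 encodes a serum- and glucocorticoid-inducible kinase that promotes epithelial sodium uptake, and Errfi1 an inhibitor of the EGF receptor. Pdk4 encodes a kinase that shuts off pyruvate dehydrogenase and rises during fasting, when tissues burn fat. Mt1 and Mt2 encode metallothioneins, small metal-binding proteins induced by zinc through the factor MTF1 and by glucocorticoids, and Cdkn1a encodes p21, an inhibitor of the cell cycle that responds to p53 and to stress hormones.

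The promoters of Mt1 and Mt2 are shown because these 2 neighbouring genes had the highest Pearson's r of any pair of the set over the lungs. Each window runs from 250 bases before to 50 bases after a RefSeq start site (build GRCm38.p6), on the plus strand, at chr8:94178839-94179138 for Mt1 and chr8:94172368-94172667 for Mt2. The capitals mark the core of the metal response element, searched as TGCACNC and TGCGCNC on both strands.
Mt1: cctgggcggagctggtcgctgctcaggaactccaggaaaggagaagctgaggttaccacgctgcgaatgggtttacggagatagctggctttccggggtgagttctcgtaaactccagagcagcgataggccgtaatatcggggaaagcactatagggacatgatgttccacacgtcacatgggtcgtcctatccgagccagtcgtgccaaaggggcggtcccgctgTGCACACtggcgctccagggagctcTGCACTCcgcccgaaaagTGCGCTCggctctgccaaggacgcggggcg
Mt2: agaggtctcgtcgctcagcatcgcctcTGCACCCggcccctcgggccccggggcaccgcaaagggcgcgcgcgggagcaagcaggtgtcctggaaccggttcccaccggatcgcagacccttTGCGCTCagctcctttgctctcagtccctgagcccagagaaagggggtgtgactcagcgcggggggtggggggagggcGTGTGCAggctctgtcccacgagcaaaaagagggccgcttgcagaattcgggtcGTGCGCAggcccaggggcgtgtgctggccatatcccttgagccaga
The Mt1 window held 3 such cores and the Mt2 window 4. At least 1 core was found in 25.7% of all 32851 promoter windows of this length, but 3 or more in only 1.97% and 4 or more in 0.517%. A half-site of the glucocorticoid response element, searched as AGAACA on both strands, was not among the letters of either window, nor in the windows of Fkbp5, Pdk4, Cdkn1a and Errfi1, while 19% of all windows held one. It was found in 1 of 3 windows of Tsc22d3 and in 3 of 6 windows of Sgk1. One Sgk1 window, chr10:21993640-21993939, held the full palindrome, in which the half-site is followed after 3 bases by its reverse complement TGTTCT, and which occurred in 3 of the 32851 windows. These are matches of letters in short windows, and binding was not measured.

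The 8 arrays were of similar brightness, with a median Cy5 signal between 204 and 277.5, between 32257 and 34709 probes well above background, and 1.72 to 6.46% of spots flagged as outliers. A total of 32645 probes were tested. As a check of the labels, Scgb3a2 stood at 0.01, -0.39, 0.58 and -0.56 in the wild-type lungs and at 1.26, 0.47, 0.70 and 0.74 in the transgenic lungs, a difference of 0.88 (SE 0.24, limma, adjusted p = 1). Transgenic lung 2 alone lay below the highest wild-type lung. Markers of alveolar type II cells were well above background on all arrays for 15 of 16 probes, as a lung should show. In these whole lungs, fewer cells of a type and less RNA per cell cannot be told apart.

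Fkbp5 had the largest difference of the set. Its brighter probe, A_52_P337899, stood at -0.21, 0.29, -0.33 and -1.10 in wild-type lungs 1 to 4 and at -2.30, -1.07, -1.12 and -0.79 in transgenic lungs 1 to 4. Transgenic lung 1 was the lowest by far, and wild-type lung 4 lay among the transgenic lungs, so the genotypes overlapped. Wild-type lungs averaged -0.34 ± 0.58 and transgenic lungs -1.32 ± 0.67 (SD, n = 4 each), so that the difference was -0.98 (SE 0.33, 95% interval -1.71 to -0.25), or 1.98-fold lower. The unadjusted limma p was 0.0128 and the p adjusted over all probes 1, and an exact two-sided permutation of the genotype labels gave p = 0.0857, where 0.0286 is the smallest that 4 against 4 allows. A second Fkbp5 probe, A_51_P383689, behaved alike, at 0.63, 0.59, -0.16 and -0.58 in wild-type and -1.91, -0.67, -0.52 and -0.22 in transgenic lungs. Its difference was -0.95 (SE 0.36, limma, unadjusted p = 0.0216, exact permutation p = 0.114). Another probe, A_52_P481493, matched Fkbp5 by accession only and lay outside the selection, and 5 of its 8 spots were flagged. With the flagged spots kept it read 0.02, 0.22, 0.12 and -0.89 in wild-type and -1.12, -1.21, -0.78 and -0.45 in transgenic lungs, the same placing of wild-type lung 4. Without transgenic lung 1 the difference of the brighter probe was -0.66, and without wild-type lung 4 it was -1.24.

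Tsc22d3 varied less widely than Fkbp5, with an SD over the lungs of 0.52 against 0.78 on the brightest probes. Its difference was smaller than the spread between lungs. The brightest of its 3 probes, A_51_P235821, had lost wild-type lungs 1 and 2 to outlier flags and stood at 0.73 and -0.46 in wild-type lungs 3 and 4 and at -0.47, -0.38, 0.26 and 0.44 in the transgenic lungs. Wild-type lung 4 and transgenic lung 1 were again at the bottom. The difference over these 6 lungs was -0.17 (SE 0.35, limma, adjusted p = 1), and those of the probes A_52_P600518 and A_51_P235816 were -0.51 and -0.16. With flagged spots kept, wild-type lungs 1 and 2 read 0.94 and 0.67 on the brightest probe, above every transgenic lung, and the 3 differences became -0.51, -0.62 and -0.52 (unadjusted limma p between 0.0772 and 0.114). The size for Tsc22d3 thus depended on spots that the scanner software had marked, which numbered 2, 1 and 2 on the 3 probes.

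Sgk1 could not be measured on unflagged spots. The probe that carries its symbol, A_52_P352246, was not well above background on any of the 8 arrays, and no fold is given for it. A bright probe that matches Sgk1 by accession, A_51_P118237, was flagged on all 8 arrays. Its flagged spots read -0.18, -0.08, -0.06 and -0.07 in wild-type and -0.56, -0.09, -0.27 and -0.25 in transgenic lungs, a difference of -0.20 (SE 0.11, limma, adjusted p = 1). The genotypes overlapped, with wild-type lung 1 below 1 transgenic lung, and transgenic lung 1 was once more the lowest.

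Errfi1 separated 3 wild-type lungs from the rest. It stood at 0.97, 0.76, 0.87 and -0.65 in wild-type lungs and at -0.42, -0.25, 0.02 and 0.09 in transgenic lungs. Wild-type lung 4 was the lowest of all 8. The means were 0.49 ± 0.76 and -0.14 ± 0.24 (SD, n = 4 each), and the difference of -0.63 (SE 0.30, limma, unadjusted p = 0.0635, adjusted p = 1) did not exceed the spread between lungs. Without wild-type lung 4 the difference was -1.00 (SE 0.14, limma, unadjusted p = 3.33e-05), which still did not pass the adjustment over all probes.

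Pdk4, the fasting gene of the set, stood at 1.33, 0.64, -0.05 and 0.12 in wild-type lungs and at -0.72, 0.08, 0.47 and -0.45 in transgenic lungs. The highest lung, wild-type 1, was 4.15-fold above the lowest, transgenic 1, and the others overlapped. The difference was -0.66 (SE 0.31, 95% interval -1.35 to 0.02, limma, unadjusted p = 0.055, adjusted p = 1).

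The metallothionein means were 1.35-fold (Mt1) and 1.29-fold (Mt2) lower in the transgenic lungs, and the values of both genes ran in parallel. Mt1, by the probe A_51_P294979, stood at -0.67, -0.71, -0.67 and -1.37 in wild-type and -1.42, -1.06, -1.00 and -1.67 in transgenic lungs. Wild-type lungs 1 to 3 lay close together above all transgenic lungs, and wild-type lung 4 fell among the latter. This probe was printed in 10 spots on each array, and the SD between its unflagged spots was 0.02 to 0.07, far less than the distance between lungs. The difference was -0.43 (SE 0.19, limma, unadjusted p = 0.0428, adjusted p = 1, exact permutation p = 0.114). Mt2 stood at -1.26, -1.03, -1.22 and -1.69 in wild-type and -1.95, -1.32, -1.23 and -2.17 in transgenic lungs, with the same lungs at the bottom. Its difference was -0.37 (SE 0.21, limma, unadjusted p = 0.112, adjusted p = 1). A second Mt1 probe, A_52_P423810, was far dimmer, with a mean net Cy5 signal of 115 against 16140, and disagreed, with a difference of -0.03 (SE 0.25) that changed sign with the processing.

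Cdkn1a spread widely within both genotypes. Its probe, also printed in 10 spots, stood at -0.76, -0.35, -2.13 and -0.96 in wild-type and -2.06, -1.00, -1.05 and -1.44 in transgenic lungs. Wild-type lung 3 and transgenic lung 1 were lowest and lay close to each other. The difference was -0.34 (SE 0.34, limma, unadjusted p = 0.344, adjusted p = 1), while the SD between spots within an array was at most 0.06.

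**Figure D1:**
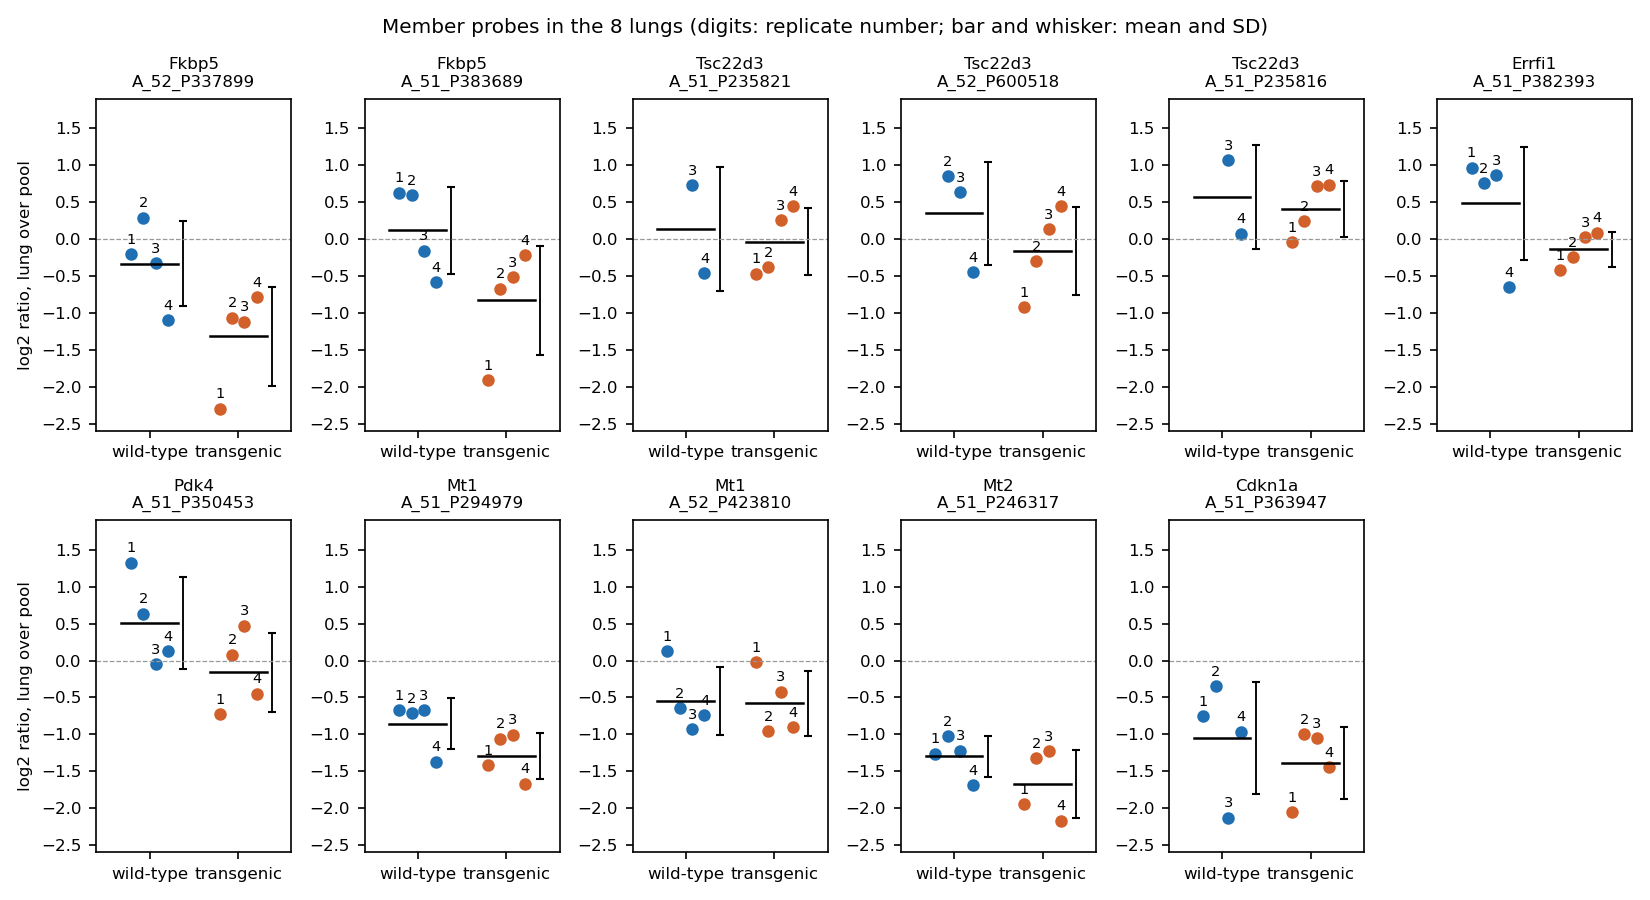
Log2 ratio of lung over pool (vertical axis) for each of the 11 tested probes of the set, wild-type lungs in blue and transgenic lungs in orange. Digits give the replicate number, the horizontal bar the mean and the whisker 1 SD. Wild-type lung 4 lies among or below the transgenic lungs for Fkbp5, Errfi1 and the brighter Mt1 probe, and the genotypes overlap in every panel.

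Of the 12 probes, 11 passed the filter on dim probes and were tested. None passed an adjusted p of 0.05, as did none of all 32645 probes tested (0%). At an unadjusted limma p under 0.05, 3 of the 11 were lower in transgenic lungs, against 0.971% of all probes, and 0 were higher, against 1.12%. The 3 were the 2 Fkbp5 probes and the brighter Mt1 probe, and probes of 1 gene are not independent. All 11 differences were below 0, with a median of -0.43, where the median over all probes tested was 0.00. For 0 of 11 probes were the genotypes free of overlap, against 1.98% of all probes. The count of 3 rested on single lungs: it was 7 of 9 tested probes without wild-type lung 4, when 571 of 32354 probes overall were lower at that p, and 1 of 11 without wild-type lung 1, without wild-type lung 2 or without transgenic lung 1. With these lungs left out, 379 of 32132, 251 of 32505 and 634 of 32240 probes tested were lower, in the order named. The count of member probes was 5 without transgenic lung 3, when 306 of 32569 probes tested were lower. It was also 5 when arrays were centred on their median. Under that setting 482 of all probes tested were lower and 120 higher, against 317 and 365 with loess. With the background fitted on all spots these were 255 and 135, and with the Cy5 channel alone 211 and 89.

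**Figure D2:**
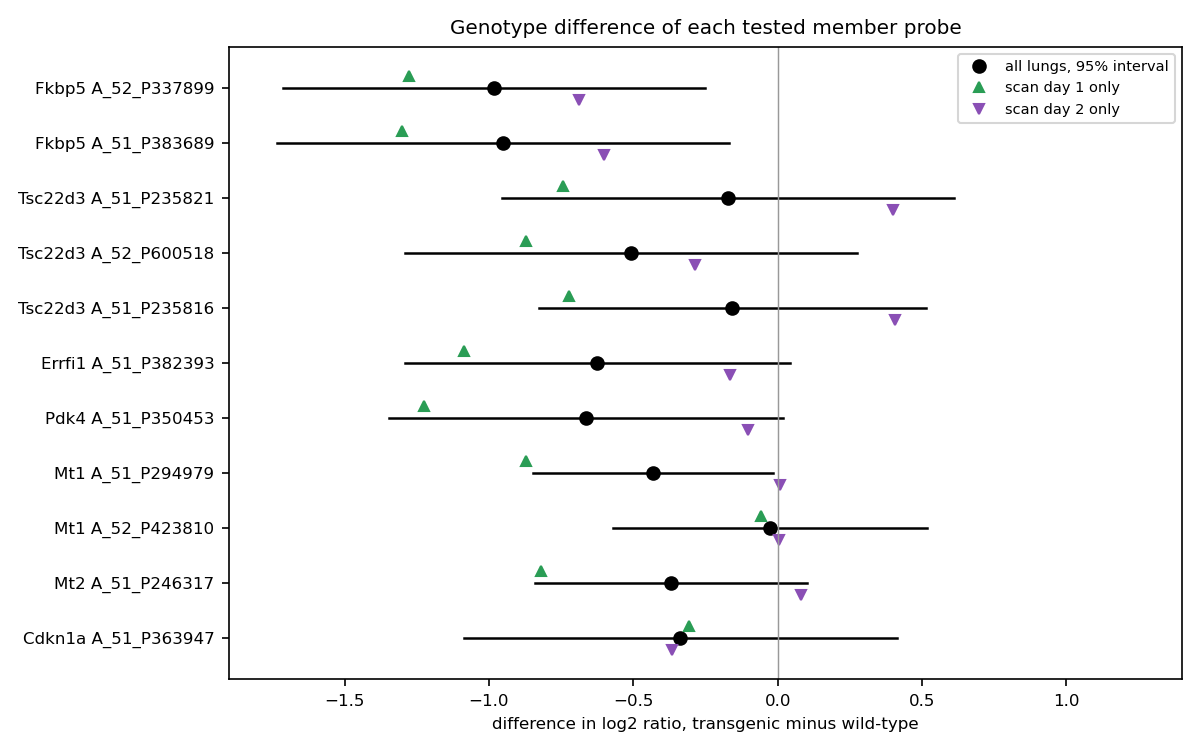
Difference in log2 ratio, transgenic minus wild-type (horizontal axis), of each tested probe, as a black point with its 95% interval from limma over all 8 arrays. Triangles give the difference among the 4 lungs of each scan day. The black points all lie below 0, and the day 2 triangles lie to the right of the day 1 triangles for all probes but Cdkn1a.

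The genotype difference was larger among the lungs of the first scan day for every tested probe of the set but that of Cdkn1a. Each day held 2 lungs of each genotype: wild-type 1 and 3 with transgenic 1 and 4 on day 1, and wild-type 2 and 4 with transgenic 2 and 3 on day 2. For Fkbp5 the difference was -1.28 on day 1 and -0.69 on day 2. The day 1 and day 2 differences were -0.87 and 0.01 for Mt1, -0.82 and 0.08 for Mt2, -1.22 and -0.10 for Pdk4 and -1.09 and -0.17 for Errfi1. Cdkn1a was the exception, at -0.31 and -0.37. A test of the change between days, chosen after these values were seen, gave 0.88 (SE 0.30) for Mt1 and 0.90 (SE 0.30) for Mt2, with unadjusted limma p values of 0.0163 and 0.0149 and an adjusted p of 1 for both, and 774 of 32226 probes overall had an unadjusted p under 0.05. With scan day as a block, the difference of Fkbp5 was still -0.98 (SE 0.35, limma, unadjusted p = 0.0174) and that of Mt1 -0.43 (SE 0.20, limma, unadjusted p = 0.0517).

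Each slide carried 1 lung of each genotype. On the slide with wild-type lung 4 and transgenic lung 3 the differences were -0.02 for Fkbp5, 0.68 for Errfi1, 0.36 for Mt1, 0.46 for Mt2 and 0.35 for Pdk4. On the other 3 slides the brightest probes of these 5 genes all gave values below 0. They ran from -0.46 to -2.09 for Fkbp5 and from -0.35 to -1.00 for Mt1. The second Fkbp5 probe gave -0.06, -2.54 and -1.27 on these 3 slides and 0.06 on the slide with wild-type lung 4. The dim Mt1 probe gave 0.03, -0.15 and -0.31 on these 3 slides and 0.32 on the slide with wild-type lung 4. With slide as a block, Fkbp5 stayed at -0.98 (SE 0.28, limma, unadjusted p = 0.00746, adjusted p = 1). The brighter Mt1 probe stayed at -0.43 but no longer had an unadjusted p under 0.05, with slide as a block (SE 0.20, limma, unadjusted p = 0.0544, adjusted p = 1) or with scan day as a block (limma, unadjusted p = 0.0517, adjusted p = 1). Over 29494 probes with a value in every lung, the deviations of the lungs on 1 slide from their genotype means correlated with r = 0.30, 0.32, 0.25 and 0.08 on the 4 slides. With the slide block, 2 Tsc22d3 probes, fitted on the 2 slides with both lungs unflagged, turned to 0.21 and 0.16.

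By their brightest probes, the 7 genes with a tested probe were among the most variable on the array. Sgk1, whose probe was at background, was not ranked. Over the lungs, the SD of the log2 ratio was 0.78 for Fkbp5, 0.64 for Pdk4 and 0.62 for Errfi1 and for Cdkn1a. It was 0.52 for Tsc22d3, over the 6 lungs with an unflagged spot, 0.41 for Mt2 and 0.38 for Mt1. The median SD of all probes tested was 0.18, and these 7 probes exceeded from 96.4% to 99.7% of them. Fkbp5 ranged over 6.02-fold between the highest and the lowest lung and Mt1 over 2.00-fold. Since the genotype difference adds to this spread, the SD within a genotype is the better guide, and for Fkbp5 it was 0.58 in wild-type and 0.67 in transgenic lungs.

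Mt2, Cdkn1a and the brighter probe of Mt1 lay below the pool in every lung. The mean log2 ratio over the 8 lungs was -1.48 ± 0.41 for Mt2, -1.22 ± 0.62 for Cdkn1a and -1.07 ± 0.38 for this Mt1 probe (SD, n = 8), which placed them at the percentiles 0.392, 0.726 and 1.03 of all probes tested. The dim Mt1 probe had a mean of -0.56 and stood at 0.12 in wild-type lung 1. The brighter Fkbp5 probe followed at -0.83 ± 0.78, with wild-type lung 2 alone above the pool. The second Fkbp5 probe had a mean of -0.36, with wild-type lungs 1 and 2 above the pool at 0.63 and 0.59. Pdk4, Errfi1 and the brightest Tsc22d3 probe had means of 0.18, 0.17 and 0.02, the last over 6 lungs. The other Tsc22d3 probes had means of 0.06 and 0.47, also without the flagged lungs. According to the study's methods the pool was made from equal amounts of the same RNAs, whereas the labels call it pooled whole mouse lung. As the pool was always in Cy3, its make-up and the dye cannot be told apart.

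Correlations between members were taken over the lungs, and none over all probes was taken as a background. Among the brightest probes of 8 genes, 27 of 28 pairs had a Pearson's r above 0, with a median of 0.59. Leaving out the Sgk1 probe, which is at background, this was 20 of 21 pairs with a median of 0.62. Of the 28 pairs, 2 passed Benjamini-Hochberg adjustment over all of them by Pearson's r and 0 by Spearman's rho. For Mt1 and Mt2, r was 0.93 over 8 lungs (exact permutation p = 0.000868, adjusted p = 0.0243) and Spearman's rho 0.88 (exact permutation p = 0.00724, adjusted p = 0.117). Without transgenic lungs 1 and 4, the farthest from the Mt1 median, r was 0.84. Within genotypes r was 0.92 and within scan days 0.996. For Tsc22d3 and Errfi1, r was 0.92 over the 6 lungs with both values (exact permutation p = 0.00278, adjusted p = 0.0389) and rho 0.94 (exact permutation p = 0.0167, adjusted p = 0.117). Too few lungs were left to repeat this without 2 of them, but with flagged spots kept r was 0.95 over 8 lungs (exact permutation p = 0.00161, adjusted p = 0.0254).

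The remaining pairs did not pass the adjustment. Fkbp5 and Errfi1 came nearest, with r = 0.80 (exact permutation p = 0.0105, adjusted p = 0.0979) and rho 0.81 (exact permutation p = 0.0218, adjusted p = 0.122), and r was 0.93 without wild-type lung 2 and transgenic lung 1. Within genotypes this r was 0.71 and within scan days 0.90. The fasting gene Pdk4 and Cdkn1a had r = 0.73 and rho 0.83 (exact permutation p = 0.0363 and 0.0154, adjusted p = 0.128 and 0.117). Cdkn1a bore no clear relation to Errfi1, at r = 0.16, or to Mt1, at r = 0.30. Each slide carried 1 lung of each genotype, and the pool is common to every ratio, so the 8 points are not fully independent.

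**Figure D3:**
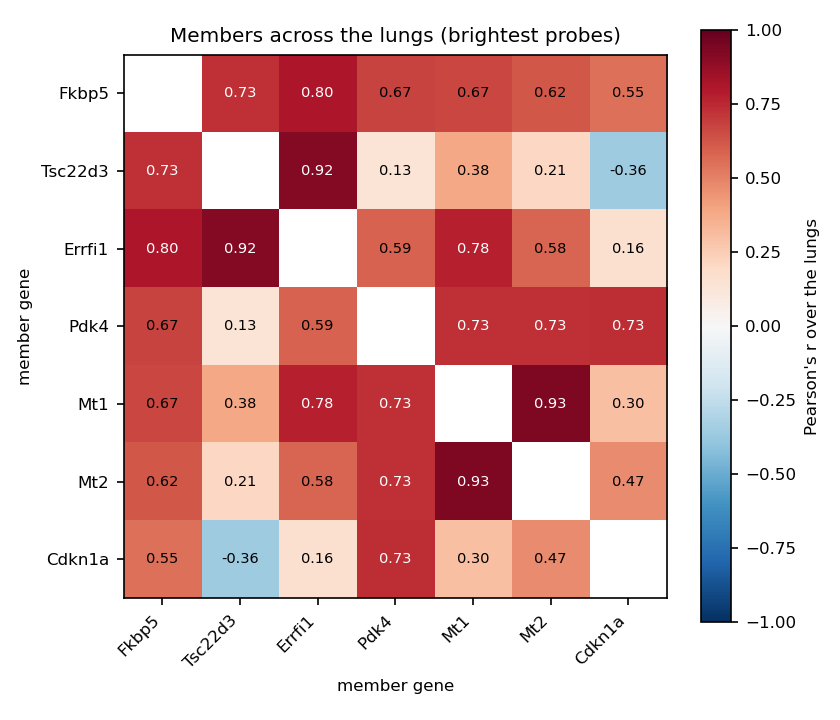
Pearson's r over the lungs between the brightest probes of 7 genes, with values printed in each cell and red for positive r. Pairs with Tsc22d3 rest on 6 lungs and the others on 8. The highest values are those of Mt1 with Mt2, 0.93, and of Tsc22d3 with Errfi1, 0.92.

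Transgenic lung 1, the lung most often low in the set, and wild-type lung 4 also stood apart in the mean of neutrophil markers. Transgenic lung 1 was among the 2 lowest lungs for 10 of 11 probes, wild-type lung 4 for 4 of 11 and transgenic lung 4 for 3 of 11. The mean log2 ratio of 8 neutrophil marker genes, all measured, was 0.12 in wild-type lung 4 and 0.69 in transgenic lung 1, against -1.15, -1.30 and -1.38 in the other wild-type and -0.88, -0.81 and -1.86 in the other transgenic lungs. Wild-type lung 4 and transgenic lung 1 were thus the highest in this mean in their genotypes. Transgenic lung 4, the lowest of all for Mt2 and the brighter Mt1 probe, had the lowest neutrophil mean. The markers did not all agree: both Ltf probes were highest among wild-type lungs in lung 1 (0.66 and 0.79), with lung 4 at -0.03 and -0.13. Of the 10 probes, 3 had a difference below 0 and 7 above, and 0 differed between genotypes at an unadjusted p under 0.05. Relations with 4 marker lists, chosen after the lung values were seen, were computed for 8 genes, 32 in all. Fkbp5 had r = -0.77 with the neutrophil mean (exact permutation p = 0.025, adjusted p = 0.12) and rho = -0.76 (exact permutation p = 0.0368, adjusted p = 0.133), and r was -0.52 without wild-type lung 2 and transgenic lung 1. Within genotypes r was -0.93. The part of neutrophils in the Fkbp5 difference was not tested.

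The metallothioneins followed the markers of alveolar type II cells, the surfactant-producing cells in which the transgene's promoter is active. The mean of 9 type II genes, all measured, was 0.57, 0.59, 1.30 and 0.03 in wild-type and -0.23, 0.35, 0.42 and -0.04 in transgenic lungs. Wild-type lung 4 and transgenic lungs 1 and 4, the lowest for Mt1 and Mt2, were also the lowest here. For Mt1, r was 0.85 (exact permutation p = 0.00451, adjusted p = 0.102) and rho 0.95 (exact permutation p = 0.00114, adjusted p = 0.0183), with r = 0.80 without transgenic lungs 1 and 4. For Mt2, r was 0.76 (exact permutation p = 0.0262, adjusted p = 0.12) and rho 0.93 (exact permutation p = 0.00223, adjusted p = 0.0238), with r = 0.58 without these lungs. Within scan days the 2 values of r were 0.86 and 0.88. Mt1 also followed the mean of 9 cardiac muscle genes, with r = 0.84 and rho 0.95 (exact permutation p = 0.00692 and 0.00114, adjusted p = 0.102 and 0.0183). Mt2 had r = 0.81 with that mean (exact permutation p = 0.0114, adjusted p = 0.102), above its r with the type II mean. For Mt1 and the adipocyte markers r was 0.78 (exact permutation p = 0.0128, adjusted p = 0.102). The type II relation was not particular to the metallothioneins. Errfi1 had r = 0.77 with that mean (exact permutation p = 0.0169, adjusted p = 0.108), while Cdkn1a had r = -0.02. The cardiac mean ranged from 0.18 to 0.76 in wild-type and from -0.31 to 0.36 in transgenic lungs, and the adipocyte mean from 0.35 to 0.79 and from -0.38 to 0.41. At an unadjusted p under 0.05, 4 of 15 type II probes, 4 of 14 cardiac probes and 2 of 11 adipocyte probes were lower in transgenic lungs, where 0.971% of all probes were. The part of these cells in the metallothionein difference was not tested.

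**Figure D4:**
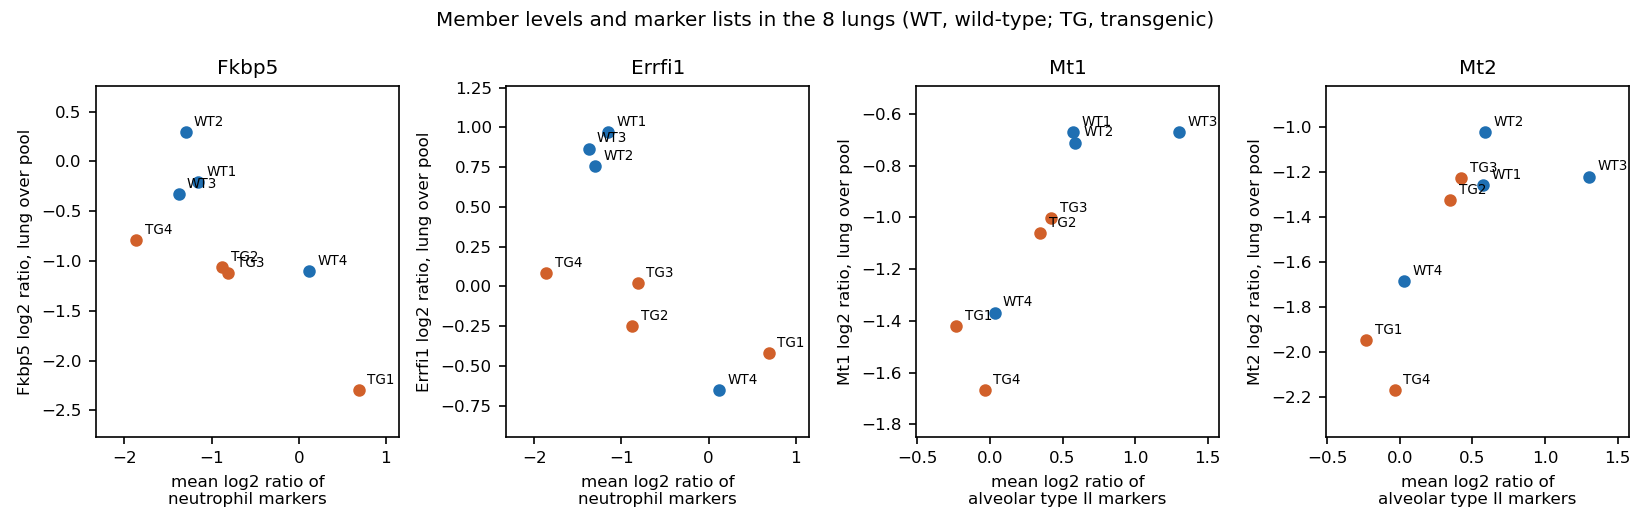
Log2 ratio of Fkbp5 and Errfi1 against the mean of 8 neutrophil marker genes, and of Mt1 and Mt2 against the mean of 9 alveolar type II genes, 1 point per lung, wild-type in blue and transgenic in orange. Wild-type lung 4 and transgenic lung 1 lie at the right in the neutrophil panels, and transgenic lungs 1 and 4 with wild-type lung 4 at the lower left in the type II panels.

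The other genes of the same pathways were read from lists. The list medians below stand beside a median of 0.00 over all probes, and the counts beside shares of 0.971% lower and 1.12% higher. Of 19 tested probes for 16 other genes known to be induced by glucocorticoids, 2 were lower and 0 higher at an unadjusted limma p under 0.05, and the median difference was -0.13. The 2 were Gadd45g, a stress gene of growth arrest, at -0.50 (SE 0.19), and Klf15, a transcription factor of the fasting response, at -0.46 (SE 0.19) on its brighter probe and -0.47 (SE 0.23) on the other, whose p was above 0.05. On the brighter Klf15 probe, the wild-type lungs stood at 0.48, 0.94, 0.80 and 0.08 and the transgenic lungs at -0.05, 0.19 and 0.20, with 1 spot flagged. Wild-type lung 4 again lay among the transgenic lungs. Of 27 probes for the receptor, its chaperones and cofactors, 1 was lower, Stip1, an adaptor of the heat shock chaperones, at -0.28 (SE 0.12), with a list median of -0.06.

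Among genes of the fasting response, 3 of 38 probes were lower and 0 higher, with a median of -0.07. They included Foxo3, a transcription factor active when insulin is low, at -0.36 (SE 0.16), and Lpin1, a phosphatidate phosphatase, at -0.36 (SE 0.15) on 1 of 4 probes. The other Lpin1 probes gave -0.46 (SE 0.28), -0.49 (SE 0.25) and -0.53 (SE 0.28). Of 24 probes for metal response genes, 1 was lower, Gclc, a glutathione synthesis enzyme, at -0.59 (SE 0.17), a value that rests on 4 lungs because the other 4 spots were flagged. The list median was 0.03, with 8 probes below 0 and 16 above. Of 23 probes for p53 targets, 3 were lower, with a median of -0.06: Trp53inp1, at -0.39 (SE 0.15), and 2 of 3 probes of Sesn1, a stress-induced regulator of growth signalling, at -0.64 (SE 0.24) and -0.54 (SE 0.21). The brightest Sesn1 probe gave -0.25 (SE 0.15).

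In 3 lists no probe reached an unadjusted limma p under 0.05. The immediate early genes, which respond within minutes to handling and growth factors, had a median of 0.00 over 21 probes, with the widest differences at Atf3 (-0.55, SE 0.29) and Btg2 (-0.31, SE 0.16). Ligands and feedback genes of the EGF receptor had a median of -0.02 over 34 probes, led by the ligand Areg (-0.33, SE 0.28) and the feedback inhibitor Spry4 (0.29, SE 0.15). Relatives of the Sgk, Tsc22, Fkbp and Cdkn families had a median of -0.02 over 24 probes, led by Nedd4l, a ubiquitin ligase (-0.33, SE 0.19), and Cdkn1c, a cell cycle inhibitor (-0.31, SE 0.16). In none of the lists did a probe pass an adjusted p of 0.05.

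The genes whose pattern was most like that of a member were ranked among 17328 genes by Pearson's r over the 8 lungs, as a description. For Fkbp5 these were Slc22a5, a carnitine transporter, at 0.979, Map3k6 at 0.967 and Egfr, the growth factor receptor, at 0.958. Mt1 was closest to Cntfr at 0.964, Shroom1 at 0.952 and Sftpd, a surfactant protein of type II cells, at 0.952. The nearest genes to Mt2 were Lypd1 at 0.967, Ctsh, a protease of type II cells, at 0.963 and Prkca at 0.957. Pdk4 was nearest to Apod, a lipid-binding protein, at 0.974, and Klhdc1, at 0.947, was also among its 3 nearest. Ranbp9 at 0.968, Gne at 0.963 and Tdrd1 at 0.960 led for Errfi1, and Gtpbp5 at 0.979, Grrp1 at 0.970 and Unc119b at 0.969 for Cdkn1a. These genes were picked as the highest of 17328 on 8 points, and no test was made.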

How the data were processed

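Gene expression was measured in 8 lungs on two-colour Agilent Whole Mouse Genome arrays. The authors deposited the scanner output of each array, made with Agilent Feature Extraction (version 11.0.1.1 per the labels, 10.10.1.1 per the file headers), holding intensity values of both channels and log10 ratios, and a table of log2 ratios. Its single-spot values equalled the processed ratios within 0.001 for 39811 of 39811 probes. From the deposited median spot and median background intensities, normexp (offset 50) and loess within arrays were computed with limma 3.58.1 in R 4.3.3. Control spots and outlier-flagged spots were left out, and the 43379 remaining spots were averaged to 41174 probes. Probes well above background on at least 4 arrays, with at least 2 values per genotype, were tested with lmFit and eBayes, two-sided, with Benjamini-Hochberg adjustment over all of them. Where a spot was flagged, the fit drops that lung. Array number, 4 per genotype, limits the precision. Tested on simulated data for 32645 probes, the fit recovered 81% of 2-fold and 98% of 4-fold changes, with 5 false calls. These shares are for the array as a whole, where the median SD over the lungs was 0.18. The tested member probes had SDs of 0.38 to 0.80, and recovery at such SDs was not tested.

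Genotypes were taken from the labels. The members and lists were chosen with earlier results of these data known. Named are all members by the brightest probe with the other probes beside it, per list the genes with an unadjusted p under 0.05 or else those with the 2 widest differences, and per member the 3 genes most alike, except that 2 genes so chosen are not reported here. Correlations used exact permutation over lungs with at least 6 values (Python 3 with SciPy). Promoter windows came from RefSeq tables, which held 17 windows for 8 of the 9 genes. Alternatives covered background correction, normalization, the processed ratios, the deposited table, the Cy5 channel alone, flags, filters, array weights, the methods' t-test, slide, scan day and replicate blocks, and leaving out each lung.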

Additional observations from a re-analysis of the deposited data

Results flagged for a closer look

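In groups of 4 lungs, a lung was marked when its gap to the nearest other lung exceeded Dixon's critical share of the group's range. Of 19 groups examined, 2 were marked, and chance marks about 1 group in 20. Both were the wild-type lung 4, which lay below the other wild-type lungs: for the brighter Mt1 probe the gap was 0.944 of the range, and for Errfi1 0.87 of the range. Neither was left out of the values reported above. Why this lung stood apart was not tested.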

How the results depend on the processing

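No probe of the set or of the other lists passed an adjusted p of 0.05 under any of the 22 alternatives. Of 241 alternative values of the member differences, 231 kept their sign and 10 did not. For Tsc22d3 A_51_P235821 the sign turned with array weights (0.032) and with slide or with the replicate block (0.21 each), and for A_51_P235816 likewise (0.0605, and 0.16 with either block). The dim Mt1 probe A_52_P423810 turned with the background fitted on all spots (0.22) and ranged from -0.21 to 0.20 when lungs were left out. The lower members at an unadjusted p under 0.05 numbered 1 with the background fitted on all spots, 5 with median centring, 0 with the methods' t-test and 1 to 7 when a lung was left out, and 2 to 4 otherwise. Of 239 tested probes in the other lists, 12 were lower and 3 higher at an unadjusted limma p under 0.05, against 0.971% and 1.12% of all probes. The lower count was 4 with the background fitted on all spots, 7 with Agilent processed signals, 7 with the Cy5 channel alone, 5 with the authors' matrix, 4 with the methods' t-test and 4 to 28 without 1 lung. The higher count was 0 with the Cy5 channel alone, 1 with array weights, 1 with the methods' t-test and 2 to 5 without 1 lung. Over all probes tested, lower probes numbered from 211 with the Cy5 channel alone to 634 without transgenic lung 1. Higher probes numbered from 89 with the Cy5 channel alone to 627 with slide as a block. All 98 alternative ratios to the pool moved by less than 1 SD. The number of correlated pairs fell from 2 to 0 with the Cy5 channel alone and with Spearman's rho.

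The replicate numbers do not pair the lungs: the correlations of same-numbered deviations were 0.32, 0.25, -0.08 and -0.21, and 2 of 4 matched their own number best. With the replicate block, 4 of 11 member probes were lower at an unadjusted limma p under 0.05, where 446 of 32645 probes overall were. The differences under this block were -0.98 for Fkbp5, -0.43 for Mt1 and -0.37 for Mt2. The number of arrays, 4 per genotype, limits the precision, and most members rest on a single spot per array. The cause of these shifts was not tested.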

Other observations

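Clock genes, several of which respond to glucocorticoids and to feeding time, differed in both directions. Among 32 tested probes, transgenic lungs were higher for 3 and lower for 2 at an unadjusted limma p under 0.05, and none passed adjustment. Of all probes tested, 1.12% were higher and 0.971% lower at that p, and 1.98% had genotypes without overlap. Dbp, a clock output factor, stood at -0.34, 0.60, 0.40 and 0.58 in wild-type and 1.56, 0.31, 0.88 and 1.53 in transgenic lungs, a difference of 0.76 (SE 0.28). The 3 probes of the repressor Nr1d1 differed by 0.83 (SE 0.32), 0.79 (SE 0.29) and 0.38 (SE 0.22), the last with an unadjusted limma p above 0.05. The dimmer probe of Nfil3, which opposes Dbp, stood at -0.65, -0.71, -0.79 and -0.95 in wild-type and -1.42, -1.01, -1.05 and -1.48 in transgenic lungs, without overlap, a difference of -0.46 (SE 0.13). The brighter Nfil3 probe gave -0.15 (SE 0.20), and the genotypes overlapped. For Cry1, a core repressor, the dimmer probe, well above background on 7 arrays, gave -0.29 (SE 0.11) without overlap, and the brighter gave -0.30 (SE 0.17) with overlap.

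The members were set against Per1, Nr1d1, Arntl, Fos and Adipoq, 40 relations with enough lungs, and 0 passed adjustment over the 40, while 4 had an unadjusted p under 0.05. Angptl4 had also been planned, but no probe carried its symbol, and it was not compared. The strongest was that of Mt1 with Nr1d1, with r = -0.85 over 7 lungs (exact permutation p = 0.00675, adjusted p = 0.27) and rho = -0.82 (exact permutation p = 0.0341, adjusted p = 0.691). Without transgenic lungs 1 and 4 only 5 lungs were left, and r was not recomputed. Within genotypes it was -0.78. The hour at which each lung was taken was not given in the sources used here.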
